A study of Mus musculus with 6 samples.

Results

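The libraries compared here were chosen by measured S100a8, not by a label. Of 6 lung RNA libraries, 3 held S100a8 above 4000 TPM (transcript abundance scaled to a fixed total per library), namely Ctrl library 3 and DPP3_KO libraries 2 and 3, and 3 held it below 2000 TPM, namely Ctrl libraries 1 and 2 and DPP3_KO library 1. The lowest value inside the high set was 4826 TPM (DPP3_KO library 3) and the highest outside it was 1766 TPM (Ctrl library 2). All libraries came from lung of NSG mice, which are immunodeficient hosts without mature T, B and natural killer cells but with neutrophils, monocytes and macrophages. The mice had carried xenografts in the mammary fat pad for 5 weeks, grown from the human breast cancer line MDA-MB-231 (Ctrl, n = 3) or from its DPP3 knockout (DPP3_KO, n = 3). The third Ctrl title reads 232 where the others read 231, and it was kept in the group its title names. Since the knockout was made in the tumour line, the level of mouse Dpp3 in lung does not check the genotype labels. The sources used here do not say whether the knockout cells were 1 clone, how old the mice were, or whether the 3 libraries of a group came from separate mice. The p-values below therefore measure only the spread between these libraries.

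Neutrophils are short-lived phagocytes that are made in bone marrow, circulate in blood and gather in large numbers in lung capillaries. S100a8 and S100a9 encode the 2 chains of calprotectin, which fills much of the neutrophil cytosol. As neutrophils mature they make their granules in a fixed order, first primary granules with myeloperoxidase and elastase, then secondary granules with lactoferrin and cathelicidin, then tertiary granules with gelatinase. Saa3 is an acute-phase apolipoprotein made outside the liver in mice, and Lcn2 encodes a protein that binds bacterial siderophores and is both a granule protein and an epithelial product.

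To show the sequence before the genes that mark the split, the 250 bases upstream of the annotated start were read for S100a8, S100a9, Saa3 and Lcn2 from RefSeq (GRCm38.p6, an earlier build than the authors' GRCm39). Each was searched on both strands for a C/EBP word (TTGCNNAA), an NF-kB word (GGG, any 2 bases, TTTCC) and a STAT word (TTCNNNGAA), named for families of factors that act in myeloid cells and in inflammation. The C/EBP word was present for S100a9 and Lcn2 on the strand of the gene and for Saa3 on the opposite strand. The sequences are given 5′ to 3′ on the gene's strand, with the matched bases in capitals.
S100a9: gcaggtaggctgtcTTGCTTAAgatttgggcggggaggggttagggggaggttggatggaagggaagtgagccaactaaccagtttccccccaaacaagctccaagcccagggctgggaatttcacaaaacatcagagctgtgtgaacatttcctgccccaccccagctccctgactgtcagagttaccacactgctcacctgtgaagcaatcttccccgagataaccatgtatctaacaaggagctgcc
Saa3: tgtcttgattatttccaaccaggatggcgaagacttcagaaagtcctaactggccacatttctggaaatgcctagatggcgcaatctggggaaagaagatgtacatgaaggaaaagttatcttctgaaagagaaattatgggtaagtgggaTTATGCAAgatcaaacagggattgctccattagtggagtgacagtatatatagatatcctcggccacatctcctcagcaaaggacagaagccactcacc
Lcn2: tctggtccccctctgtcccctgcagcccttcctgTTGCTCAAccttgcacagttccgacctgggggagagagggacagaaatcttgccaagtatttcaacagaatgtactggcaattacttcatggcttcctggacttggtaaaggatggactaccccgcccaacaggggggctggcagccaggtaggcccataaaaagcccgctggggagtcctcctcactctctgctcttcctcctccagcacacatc
These windows lie at chr3:90695722-90695971, chr7:46715677-46715926 and chr2:32387740-32387989, all on the minus strand. The matched bases lay 236 to 229 bases before the start in S100a9, 99 to 92 in Saa3 and 216 to 209 in Lcn2. Of 32851 promoter windows of this length, 9.56% held the C/EBP word, 1.41% the NF-kB word and 7.02% the STAT word. The S100a8 window held none of the 3 words, and the other windows held neither the NF-kB nor the STAT word. A match is a run of letters and was not tested as a binding site.

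The values of the 4 markers in every library were as follows. S100a8 stood at 965 and 1766 TPM in Ctrl libraries 1 and 2 and at 17949 TPM in Ctrl library 3, and at 394 TPM in DPP3_KO library 1 against 10614 and 4826 TPM in DPP3_KO libraries 2 and 3. S100a9 stood at 2621, 4675 and 29212 TPM in Ctrl libraries 1 to 3 and at 1065, 19760 and 8396 TPM in DPP3_KO libraries 1 to 3. Together the 2 calprotectin genes made up 0.359%, 0.644% and 4.72% of all TPM in Ctrl libraries 1 to 3, and 0.146%, 3.04% and 1.32% in DPP3_KO libraries 1 to 3. Saa3 went from 156 and 148 TPM to 9904 TPM within Ctrl, and from 102 TPM to 21047 and 7931 TPM within DPP3_KO. Saa3 ranked the high libraries differently from S100a8, being highest in DPP3_KO library 2, where it was 2.1% of all TPM. Lcn2 stood at 607, 481 and 3617 TPM in Ctrl libraries 1 to 3 and at 162, 2050 and 1497 TPM in DPP3_KO libraries 1 to 3. For all 4 genes the high and low libraries did not overlap in either genotype. Since S100a8 set the split, its separation is no result, and the others of the 4 were also known from these data to go with it.

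**Figure D1:**
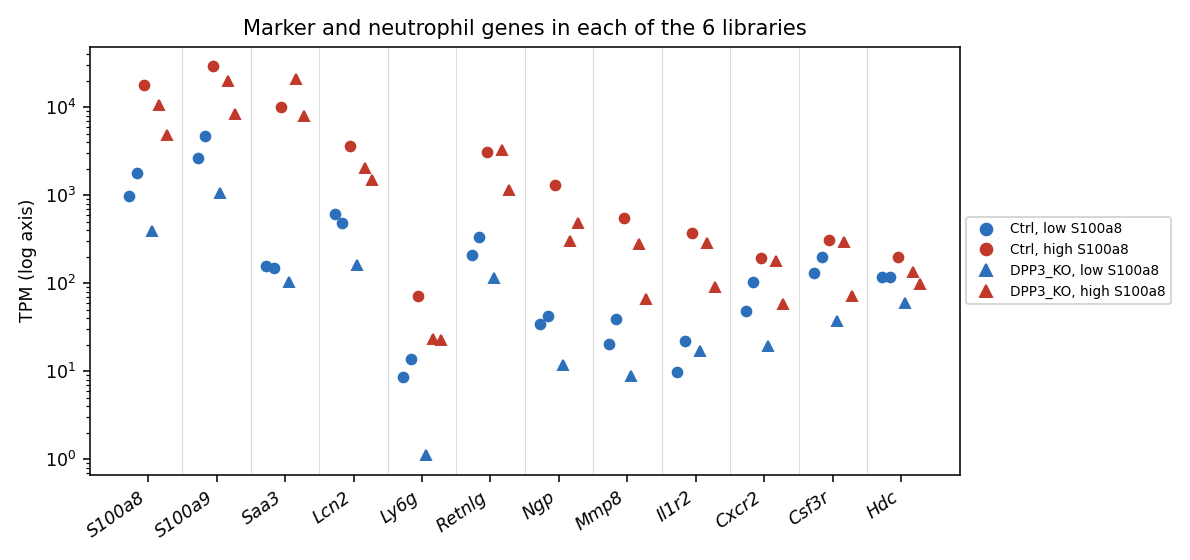
TPM on a log axis of the 4 marker genes and 8 neutrophil identity genes, 1 point per library, with circles for Ctrl, triangles for DPP3_KO, blue for low and red for high S100a8. Within each genotype every red point lies above every blue point of the same gene, with Saa3 going from at most 156 TPM to at least 7931 TPM.

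Differences between high and low libraries were taken within Ctrl and within DPP3_KO on the log2(TPM + 1) scale and averaged, which gives both genotypes the same weight. On this scale the differences of low genes are understated. A gene was counted when every high library lay beyond every low library of its genotype and the difference was at least 1 log2 in each genotype. Of the 15650 genes whose mean level reached 1 TPM, 449 (2.87%) were counted higher and 115 (0.735%) lower. S100a8 itself is among those higher. Groups that did not overlap, whatever the size of the difference, were common, with 2146 genes (13.7%) separated upward in both genotypes and 3722 (23.8%) downward. Another 1423 (9.09%) were separated downward in Ctrl and upward in DPP3_KO, and 433 (2.77%) the other way. No test is given for this contrast, since a measured gene chose the libraries. The high state within Ctrl is a single library, as is the low state within DPP3_KO. The median difference over all genes was -0.08, and it was -0.02 after median-of-ratios scaling, under which 509 genes were counted higher and 91 lower, with 449 and 88 shared with the deposited scale. The genes counted higher made up 2.02%, 2.46% and 12.7% of all TPM in Ctrl libraries 1 to 3 and 1.1%, 10.8% and 5.64% in DPP3_KO libraries 1 to 3.

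**Figure D2:**
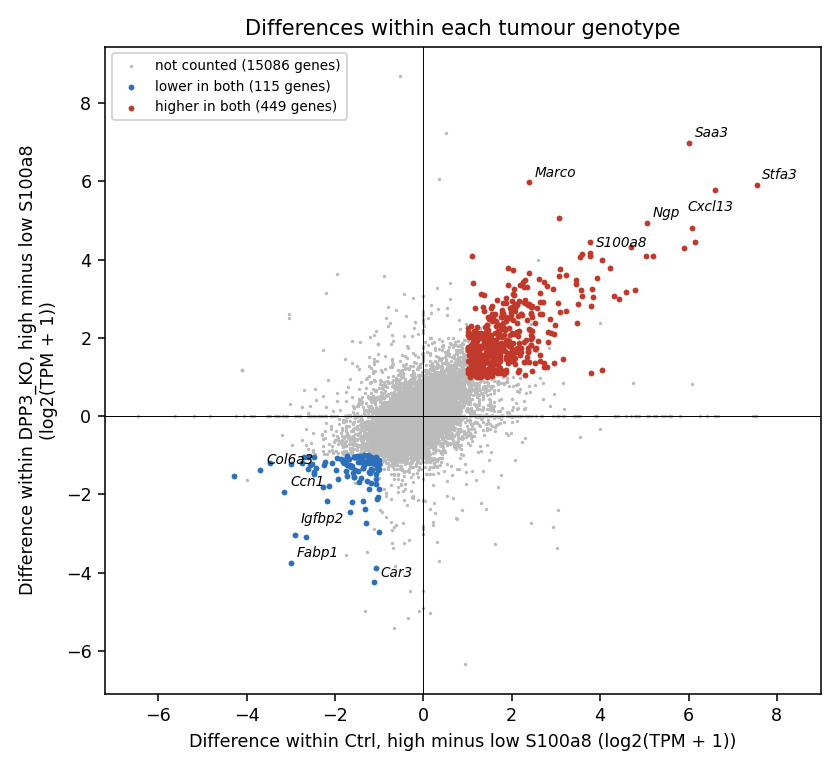
Difference between high- and low-S100a8 libraries within Ctrl (x) and within DPP3_KO (y), in log2(TPM + 1), 1 point per gene of 15650 with coloured points for the 449 genes counted higher and the 115 counted lower. Of the counted genes, Stfa3, Saa3 and Cxcl13 have the highest mean of the 2 differences and Fabp1 the lowest.

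The largest mean differences were in the stefin gene Stfa3 (6.73, 106-fold), Saa3 (6.49, 90.1-fold) and Cxcl13 (6.19, 73.2-fold). Cxcl13, a chemokine best known for drawing B cells into follicles, stood at 4.34, 2.74 and 433 TPM in Ctrl libraries 1 to 3 and at 8.51, 459 and 596 TPM in DPP3_KO libraries 1 to 3. Stefins inhibit cysteine proteases, and Cstdc6 (5.44), Stfa2 (5.30), Cstdc5 (5.10) and Cstdc4 (4.57) followed Stfa3. These stefin genes are close copies of each other, so how reads were shared among them is uncertain. The next leaders were Ngp, a secondary granule protein (4.99), Prok2, a small chemotactic protein (4.64), Ifitm6 (4.51), the scavenger receptor Marco (4.17), AA467197 (4.10), Saa1 (4.07), the formyl peptide receptor Fpr2 (4.02) and the neutrophil collagenase Mmp8 (4.01). Saa1 and Saa2 (2.47) are also near copies.

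The neutrophil name was checked with 18 identity genes other than the 4 markers. Every high library lay above every low library of its genotype for 18 of the 18, against 13.7% of all genes, and 16 were counted, with a median difference of 2.97. The range went from 0.84 for Hdc, the histamine-forming enzyme, to 4.99 for Ngp. Hdc and Csf3r, the receptor for the growth factor G-CSF (1.43), were the 2 not counted. Ly6g, the surface antigen used to sort mouse neutrophils, stood at 8.54, 13.9 and 72.0 TPM in Ctrl libraries 1 to 3 and at 1.11, 23.2 and 22.5 TPM in DPP3_KO libraries 1 to 3. In bulk tissue, more neutrophils and more RNA per neutrophil cannot be told apart.

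Over 4 neutrophil lists with 61 measured genes, S100a8 and S100a9 not among them, 44 (72.1%) were counted higher and 0 lower. Their median difference was 2.14, and over all genes 2.87% were counted higher. By granule class, 4 of 6 primary granule genes, 8 of 9 secondary granule genes and 12 of 14 tertiary granule and maturation genes were counted higher, with medians of 1.94, 3.31 and 3.06. Among them were the primary granule proteases Ctsg (2.61) and Elane (1.89), the peroxidase Mpo (1.99), the iron-binding lactoferrin Ltf (3.48), the antimicrobial peptide Camp (3.31) and gelatinase B, Mmp9 (2.79). Of 32 mature neutrophil surface and signalling genes, 20 were counted higher (median 1.95). They included the decoy interleukin 1 receptor Il1r2 (3.88) and the formyl peptide receptor Fpr1 (3.85). The amplifier of myeloid activation Trem1 (2.03) and the chemokine receptor Cxcr2 (1.89) were counted too. In this list 2 genes were separated downward in both genotypes without being counted, G0s2 (-1.59) and Cxcr1 (-0.55).

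The 2 high libraries of DPP3_KO differed in which of these genes led. All 6 primary granule genes were higher in DPP3_KO library 3 than in library 2, with Mpo at 13.1 against 2.30 TPM and Elane at 4.53 against 1.22 TPM. The secondary granule genes were divided. Camp (175 against 17.0 TPM), Ltf (269 against 135 TPM) and Ngp (487 against 304 TPM) were higher in library 3. The other 6 of the 9 were higher in library 2, among them Mmp8 (275 against 65.8 TPM), the granule glycoprotein Olfm4 (38.5 against 12.0 TPM), Chil3 (1404 against 282 TPM) and Cd177 (57.3 against 43.0 TPM). Of 14 tertiary granule and maturation genes 13 were higher in library 2, all but Padi4. Of 32 mature neutrophil surface and signalling genes 29 were higher in library 2, all but Cebpe, Cxcr1 and Trem2. Cxcr2 stood at 178 TPM in library 2 and 57.7 TPM in library 3. S100a8 was also higher in library 2 (10614 against 4826 TPM). The median-of-ratios size factor was 0.909 for library 2 and 0.7 for library 3, so a typical gene also had a higher TPM in library 2. The share of all genes higher in library 2 was not taken, so these counts have no background beside them. This comparison is of 1 library with another, has no replicate check and was made after the values were seen.

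**Figure D3:**
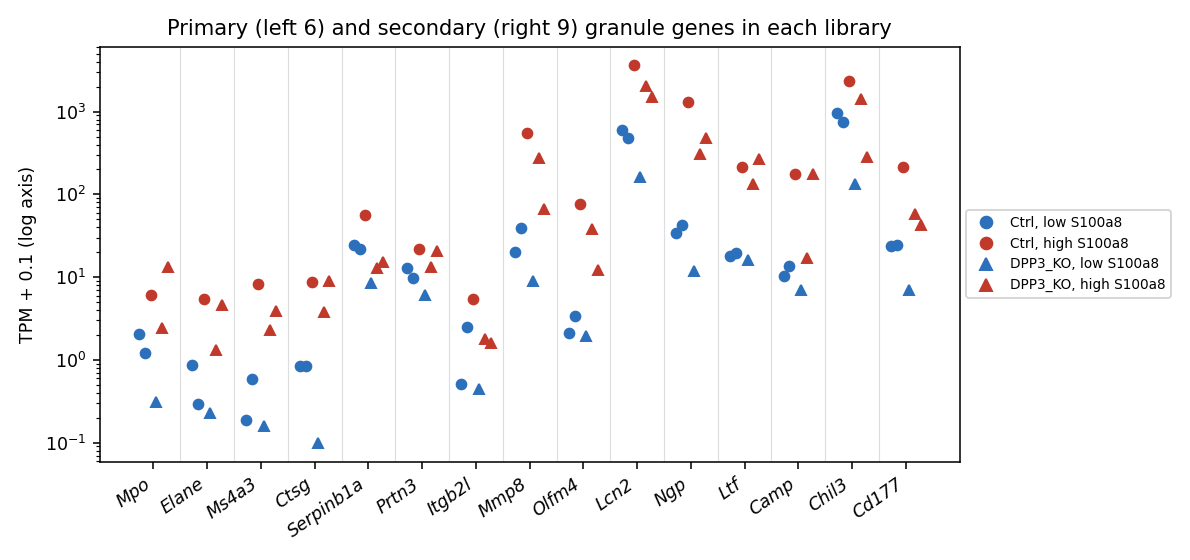
TPM + 0.1 on a log axis of the 6 primary granule genes (left) and the 9 secondary granule genes (right) measured, 1 point per library with symbols for genotype and colours for low (blue) or high (red) S100a8. DPP3_KO library 3, the right red triangle of each gene, lies above DPP3_KO library 2 for all 6 primary granule genes and for 3 of the 9 secondary granule genes, Camp, Ltf and Ngp.

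Some monocyte genes went with the split as well. Over all genes, 2.87% were counted higher. Of 11 patrolling monocyte genes, 7 were counted higher (median 1.91), including Pglyrp1 (3.10), a peptidoglycan-binding protein that neutrophils also make, Spn (2.80), Treml4 (2.77), Cd300e (2.47) and the fractalkine receptor Cx3cr1 (1.73). Nr4a1, the transcription factor that patrolling monocytes need (-0.61), and Ace (-0.57) were not counted. Of 12 classical monocyte genes 5 were counted higher (median 0.93), among them S100a4 (1.35) and Chil3 (1.84). Chil3 is also on the secondary granule and alveolar macrophage lists. The recruitment receptor Ccr2 (0.35) and Ly6c2 (0.17) were not counted. Among complement and Fc receptor genes 9 of 20 were counted higher (median 1.15), including the activating receptors Fcgr4 (3.44) and Fcgr3 (1.57), their shared chain Fcer1g (2.44), the integrin Itgam (2.66), the anaphylatoxin receptor C5ar1 (1.88) and the C1q chains C1qb (1.39) and C1qc (1.27). Of 13 interstitial macrophage genes 4 were counted higher (median 1.06).

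Alveolar macrophages live in the air spaces. Of 18 of their genes 2 were counted higher, Marco (4.17) and Chil3 (1.84), and 1 lower, with a median of -0.21. Over all genes the shares were 2.87% higher and 0.735% lower. Marco, which also marks other macrophages, stood at 55.0, 42.6 and 256 TPM in Ctrl libraries 1 to 3 and at 1.79, 244 and 123 TPM in DPP3_KO libraries 1 to 3. Siglecf, a defining surface protein of these cells, stood at 14.4, 15.4 and 6.60 TPM in Ctrl libraries 1 to 3 and at 0.45, 0.88 and 0.25 TPM in DPP3_KO libraries 1 to 3. Marco was thus at its lowest in DPP3_KO library 1, while Siglecf was low in the whole of that group. Dendritic cell genes were counted lower for 2 of 10, Cd209a (-1.27) and the chemokine Ccl22 (-1.51), against 0.735% of all genes. Their median was -0.62. The 8 MHC class II genes were not counted (median -0.94), with Cd74, the invariant chain, at 1306, 935 and 366 TPM in Ctrl libraries 1 to 3 and at 436, 182 and 481 TPM in DPP3_KO libraries 1 to 3.

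The shares over all genes were 2.87% counted higher and 0.735% counted lower. Among signals that attract or arm neutrophils, 3 of 10 chemoattractant and growth factor genes were counted higher. They were the Cxcr2 ligands Cxcl2 (3.06) and Cxcl5 (1.34) and the platelet chemokine Pf4 (1.30). Cxcl5 was low, at 6.15 TPM or less in every library. Cxcl1 (1.56), Ppbp (0.81) and Cxcl15 (-0.44) were among those not counted. Of 21 other chemokines 5 were counted higher, namely Cxcl13, Ccl3 (2.64), Ccl7 (2.60), Ccl2 (2.27) and Ccl4 (2.18), and 1 lower, Ccl22. Of 17 cytokine and receptor genes 3 were counted higher, namely Tnf (2.41), the interleukin 1 antagonist Il1rn (2.89) and the receptor Tnfrsf1b (1.56). Il1b, an inflammasome product, was not counted. It stood at 207, 192 and 213 TPM in Ctrl libraries 1 to 3 and at 37.3, 355 and 130 TPM in DPP3_KO libraries 1 to 3, so its difference was 0.10 within Ctrl and 2.5 within DPP3_KO.

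Of 29 acute-phase and secreted defence genes 11 were counted higher and 1 lower (median 1.13), against 2.87% and 0.735% of all genes. Those higher included Saa3, Saa1, Saa2, Lcn2, the antibacterial lectin Reg3g (3.19), the lipopolysaccharide co-receptor Cd14 (2.18), complement factor Cfb (2.06), Orm1 (1.52), Serpina3n (1.51), Chil1 (1.51) and Steap4 (1.44), and the gene lower was Fgg, a fibrinogen chain (-1.44). Of 26 NF-kB feedback and target genes 8 were counted higher (median 0.83), namely Nos2 (3.44), Irak3 (2.67), Tlr2 (1.58), Nfkbiz (1.37), Tnfaip3 (1.36), Bcl3 (1.30), Tnip3 (1.26) and Tnip1 (1.18). Most of these are brakes or co-regulators of the pathway, while Nos2 makes nitric oxide. Of 13 JAK-STAT3 genes 2 were counted, Socs3 (1.54) and Pim1 (1.12). Of 21 glucocorticoid and clock genes 2 were counted, the metallothioneins Mt2 (1.76) and Mt1 (1.58).

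Club and secretory cell genes had 2 of 13 counted, Reg3g and Scgb3a1, both higher, against 2.87% of all genes. Scgb3a1, an airway secretoglobin, stood at 45.0, 325 and 470 TPM in Ctrl libraries 1 to 3 and at 1585, 4480 and 3839 TPM in DPP3_KO libraries 1 to 3. Reg3g stood at 0.12, 10.9 and 40.6 TPM in Ctrl libraries 1 to 3 and at 24.7, 134 and 260 TPM in DPP3_KO libraries 1 to 3. Both genes had higher values in DPP3_KO as well as with S100a8, and the Reg3g difference between genotypes (3.56 ± 1.36 SE, limma adjusted p = 0.0749) missed the threshold.

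Of 31 interferon response genes measured, 0 were counted in either direction. Over all genes 2.87% were counted higher and 0.735% lower, so a count of 0 in a list of this size is near those shares. In both genotypes 0 of the 31 were separated upward and 3 downward, against 13.7% and 23.8% of all genes. The median was -0.39 within Ctrl and 0.30 within DPP3_KO, with Isg15 at 110, 65.4 and 56.2 TPM in Ctrl libraries 1 to 3 and at 24.5, 49.5 and 42.2 TPM in DPP3_KO libraries 1 to 3. Cell proliferation genes had 1 of 21 counted higher, Hmgb2 (1.63), with medians of -0.35 within Ctrl and 0.85 within DPP3_KO.

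**Figure D4:**
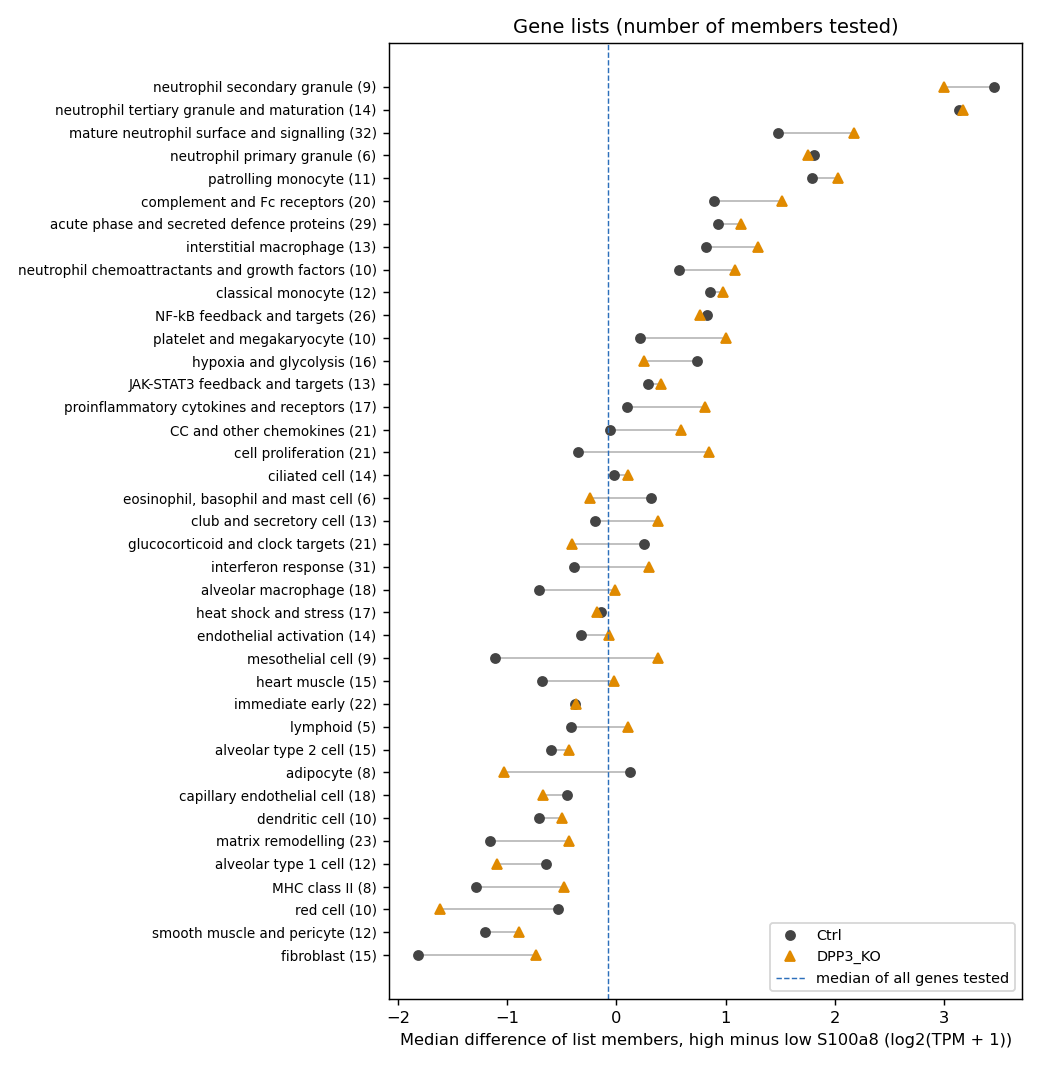
Median difference between high- and low-S100a8 libraries for each gene list, in log2(TPM + 1), within Ctrl (circles) and within DPP3_KO (triangles). The dashed line is the median of all genes tested (-0.08). The pair S100a8 and S100a9 is left out. The secondary and tertiary granule lists lie farthest to the right in both genotypes, and the fibroblast list lies at -1.82 within Ctrl and -0.74 within DPP3_KO.

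The lower genes were led by Fabp1 (-3.37), a fatty acid carrier, and included matrix, alveolar and smooth muscle genes. Fabp1 stood at 36.4, 30.3 and 3.31 TPM in Ctrl libraries 1 to 3 and at 12.5 TPM in DPP3_KO library 1, and was listed at 0 in DPP3_KO libraries 2 and 3. Of 23 matrix remodelling genes 7 were counted lower and 0 higher (median -0.77), against 0.735% and 2.87% of all genes. They were Ccn1 (-2.54) and Ccn2 (-1.46), secreted targets of the YAP pathway, the collagen chain Col1a1 (-1.88), the protease Adamts1 (-1.48), and the matrix proteins Tnc (-1.37), Sparc (-1.22) and Postn (-1.15). Ccn1 stood at 377, 374 and 41.4 TPM in Ctrl libraries 1 to 3 and at 216, 119 and 25.8 TPM in DPP3_KO libraries 1 to 3. Col6a3, a collagen VI chain, was lower still on average (-2.53). The gap in Col3a1 was found within Ctrl (-3.01) and not within DPP3_KO (0.30), and the difference between these was not tested.

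Over all genes, 0.735% were counted lower and 2.87% higher. Of 12 alveolar type 1 cell genes, from the thin cells that carry gas exchange, 3 were counted lower (median -0.82) and 11 were separated downward, against 23.8% of all genes. Igfbp2 stood at 409, 312 and 78.3 TPM in Ctrl libraries 1 to 3 and at 141, 16.6 and 55.5 TPM in DPP3_KO libraries 1 to 3. The others were the tight junction gene Cldn18 (-1.39) and the receptor Ager (-1.06). Of 12 smooth muscle and pericyte genes 3 were counted lower, Actg2 (-1.71), Acta2 (-1.52) and Myh11 (-1.07), and 12 were separated downward, again against 23.8% of all genes. Of 18 capillary genes 1 was counted lower, Plvap (-1.09), the protein of endothelial diaphragms. Of these 18, 9 were separated downward (median -0.58), against 23.8% of all genes. Of 22 immediate early genes 2 were counted lower, Egr1 (-2.04) and Fos (-1.13). Alveolar type 2 cell genes had 1 of 15 counted, Chil1, which was higher. Of the same 15 genes, 11 were separated downward (median -0.55), against 23.8% of all genes. Ciliated cell genes had 0 of 14 counted (median 0.07). Of 15 fibroblast genes 2 were counted lower, Col1a1 and the integrin ligand Npnt (-1.57). Ager, Myh11, Plvap, Sparc and Fos were no longer counted after median-of-ratios scaling, while their differences stayed negative.

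**Figure D5:**
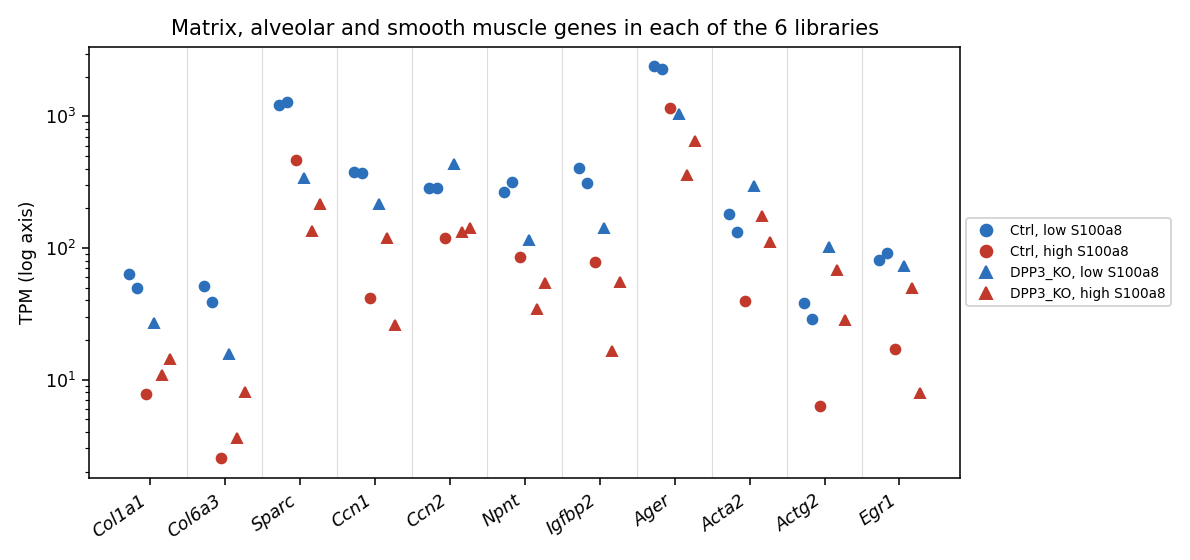
TPM on a log axis of matrix, alveolar, smooth muscle and immediate early genes counted lower in the high-S100a8 libraries, 1 point per library with symbols for genotype and colours for low (blue) or high (red) S100a8. Within each genotype every red point lies below every blue point, with Ccn1 in Ctrl going from 374 TPM or more to 41.4 TPM.

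Several lower genes are made mainly by liver or fat. Apoa1, Ttr, Gc, Fgg, Alb and Car3 were each at their highest in DPP3_KO library 1. Fabp1, the liver fatty acid binding protein, was not, with 36.4 TPM in Ctrl library 1 and 12.5 TPM in DPP3_KO library 1. Apoa1 (-2.47) stood at 11.4, 3.23 and 2.45 TPM in Ctrl libraries 1 to 3 and at 25.4, 1.61 and 0.23 TPM in DPP3_KO libraries 1 to 3. Alb, not counted, stood at 27.3, 5.24 and 9.39 TPM in Ctrl libraries 1 to 3 and at 65.2, 0.43 and 1.41 TPM in DPP3_KO libraries 1 to 3. Car3, an enzyme of fat and muscle, was 36.8 TPM in DPP3_KO library 1 and at most 6.12 TPM elsewhere. The adipocyte list had 0 of 8 genes counted, with a summed level of 188 TPM in that library against 99.9 to 152 TPM in the others. Red cell genes summed to 52200, 23000 and 49500 TPM in the low libraries and to 19900, 6800 and 22700 TPM in the high ones. Of 10 red cell genes 1, Hba-a1, was counted lower, against 0.735% of all genes. Apoa1, Ttr, Fgg, Car3 and Hba-a1 were no longer counted after median-of-ratios scaling. The part of blood, liver or fat RNA in the lower genes was not tested.

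Tumour genotype was the only labelled contrast and could be tested. With limma on log2(TPM + 1), adjusted over 15650 genes, 216 genes (1.38%) were higher and 5321 (34%) lower in DPP3_KO. None of the 4 markers passed. DPP3_KO minus Ctrl was -0.20 ± 1.44 (SE) for S100a8, with a limma adjusted p of 0.918, and 2.07 ± 2.30 for Saa3, with 0.486. The values for S100a9 (-0.34 ± 1.22, limma adjusted p = 0.835) and Lcn2 (-0.36 ± 1.10, 0.805) also missed the threshold. The high libraries were Ctrl library 3 and DPP3_KO libraries 2 and 3, so the split was uneven between the genotypes. It therefore enters both the difference and the spread of this test. Of the 449 genes counted higher with S100a8, 3 (0.668%) were higher in DPP3_KO by limma, namely Scgb3a1 (3.97, adjusted p = 0.0195), Orm1 (2.29, 0.0265) and Gm16567 (3.68, 0.0187). Another 5 (1.11%) were lower, namely Lilra5 (-1.84), Serpina3i (-2.00), Naip2 (-1.54), Plcg2 (-1.46) and Dock2 (-1.62). Of the 115 genes counted lower, 17 (14.8%) were also lower in DPP3_KO, among them Cldn18 (-2.45, adjusted p = 0.0188 by limma), Sparc (-2.06, 0.0220) and Ager (-1.57, 0.0339), and 1 was higher, Ccl22 (2.23, 0.0400). After median-of-ratios scaling the adjusted p of these named genes was 0.0471 for Gm16567, 0.0495 for Scgb3a1, 0.0675 for Orm1 and 0.0684 for Ccl22 by limma, and from 0.109 for Cldn18 to 0.338 for Plcg2 for the 8 genes lower in DPP3_KO. Each of the 12 calls was also lost without Ctrl library 1 or without Ctrl library 2. The count of genes lower in DPP3_KO fell to 138 after median-of-ratios scaling, with 297 higher, and without Ctrl library 1 it was 18 with 1 higher. Scgb1a1, the club cell secretoglobin, took 7.69%, 10.1% and 7.16% of all TPM in Ctrl libraries 1 to 3 and 28.7%, 21.7% and 27.9% in DPP3_KO libraries 1 to 3, and TPM sums to the same total in every library.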

How the data were processed

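RNA was sequenced from 6 lung samples with TruSeq libraries, per the labels' protocols. The authors deposited TPM values for 56980 mouse genes in 1 table, and the submitters' processing notes name HISAT2, StringTie, RSEM and GRCm39, without versions or roles. The treatment of human reads is not given in the sources used here. All columns have the same total, so the depth is unknown and counting errors cannot be given.

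Samples were grouped by title. Values were analysed as log2(TPM + 1) for the 15650 genes whose mean reached 1 TPM. The split by S100a8 was described with no test. DPP3_KO minus Ctrl was tested with limma 3.58.1 in R 4.3.3 (intensity trend, two-sided, Benjamini-Hochberg, threshold 0.05). A permutation test of 3 against 3 cannot go below 0.1, so none is given. The gene lists (40), the split and its markers were chosen with earlier results of these data known. Named by rule were the markers, 18 identity genes, the 15 largest and 15 smallest differences among counted named genes, and the 4 members of each list with the highest level, 181 genes in all. Every other gene named was chosen after its values were seen. Alternatives changed the pseudocount, the filter, the scaling, the size of difference, the limma settings and the libraries. Promoter bases came from RefSeq. GRCm38.p6 differs from the authors' build, so its coordinates apply to the printed sequences alone.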

Additional observations from a re-analysis of the deposited data

Results flagged for a closer look

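Some of the genes named in the text differed in opposite directions within the 2 genotypes, with every high-S100a8 library on 1 side of every low one in Ctrl and on the other side in DPP3_KO. The difference between the genotypes was not tested. With 1 high library in Ctrl and 1 low library in DPP3_KO, each direction rests on a single library. Values are log2(TPM + 1) differences, high minus low, first within Ctrl and then within DPP3_KO.

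Over all 15650 genes, 1423 (9.09%) were separated downward in Ctrl and upward in DPP3_KO, and 433 (2.77%) the other way. Besides Trem2 (-0.62 and 0.95), 17 of the genes named in the text or by its rule had the first pattern. From mesothelium and simple epithelium came Msln (-1.46 and 0.69), Upk1b (-1.11 and 1.47), Aldh1a2 (-1.50 and 1.27), Krt8 (-0.77 and 0.11) and Krt19 (-0.87 and 0.22). From heart muscle came Myl7 (-1.06 and 0.23), Myh6 (-0.68 and 0.41) and Tnni3 (-0.52 and 0.17). From interferon and inflammatory responses came Oasl2 (-0.46 and 1.30), Isg15 (-0.59 and 0.87), Irf1 (-0.18 and 0.32), Icam1 (-0.18 and 0.38), Ccl6 (-0.52 and 1.11) and Cxcl17 (-0.06 and 0.31). The others were Cdc20 (-1.18 and 1.24), Stmn1 (-0.76 and 0.01) and Nrgn (-0.95 and 0.62). Of the same genes, 5 had the other pattern, namely Lipe (0.52 and -0.10), Gata2 (0.45 and -0.55), Pecam1 (0.22 and -0.40), Il6st (0.35 and -0.52) and Fabp4 (0.70 and -0.17). Whether either pattern was more frequent among the named genes than over all genes was not tested.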

How the results depend on the processing

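The depth behind TPM is unknown, the high state in Ctrl and the low state in DPP3_KO are 1 library each, and no replicate check exists for either. The count of genes higher with S100a8 (449) stayed within 1.5 times under other scalings and filters but was 285 with a pseudocount of 5, and the count lower (115) was 250 with a pseudocount of 0.1, 32 with 5 and 243 after rescaling without mitochondrial, haemoglobin and Scgb1a1 genes. With a 1.5-fold step the counts were 821 higher and 700 lower, and with 2 log2 they were 105 and 4. Without 1 library they ran from 376 to 531 higher and from 121 to 144 lower. No value exists without Ctrl library 3 or DPP3_KO library 1, since a genotype then lacks 1 side. Removing each library's trend with gene length after median-of-ratios scaling, chosen after seeing the data, gave 505 and 95. Of 2976 differences of named genes under alternatives, 2896 moved by less than the residual spread, 80 moved by more and 0 counted genes reversed.

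The count of genes lower in DPP3_KO (5321) was 3093 with no filter, 138 after median-of-ratios scaling, 140 after quantile normalization and 124 after the rescaling, and the count higher (216) was 327 after quantile normalization and 93 after the rescaling. Without 1 library they ran from 18 to 4993 lower and from 1 to 146 higher, with 71 and 4 without Ctrl library 2, 3163 lower without DPP3_KO library 1 and 1596 lower without DPP3_KO library 3. With the S100a8 state as a term they were 5878 and 284. DPP3_KO minus Ctrl changed sign after median-of-ratios scaling for Lcn2 (0.30), S100a8 (0.46) and S100a9 (0.32), and after the rescaling for S100a8 (0.16) and S100a9 (0.02). With 1 library left out it ran from -1.05 to 0.78 for Lcn2, from -1.18 to 1.19 for S100a8 and from -1.25 to 0.86 for S100a9, and was above 0 without Ctrl library 3 (0.55, 1.06 and 0.68) and without DPP3_KO library 1 (0.78, 1.19 and 0.86). The cause was not tested. Whether the replicate numbers pair the samples is not given in the sources used here. Deviations of same-numbered libraries from their group means correlated at 0.271, -0.206 and 0.147. Those of Ctrl library 3 correlated at 0.408 with DPP3_KO library 2 and at -0.483 with DPP3_KO library 1. The S100a8 state and the centring within groups of 3 enter these values, so they cannot decide on pairing. The replicate block gave 4734 lower and 212 higher.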

Other observations

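Mesothelial genes, from the lining of the lung surface, did not follow the split in 1 direction. Of 9 measured, 0 were counted in either direction, and the list's median difference was -1.11 within Ctrl and 0.38 within DPP3_KO. Msln, the surface protein mesothelin, stood at 117, 64.1 and 30.8 TPM in Ctrl libraries 1 to 3 and at 54.8, 90.5 and 87.8 TPM in DPP3_KO libraries 1 to 3. Aldh1a2, which makes retinoic acid, stood at 34.4, 15.3 and 7.48 TPM in Ctrl libraries 1 to 3 and at 9.36, 23.0 and 24.9 TPM in DPP3_KO libraries 1 to 3. High and low libraries overlapped across the genotypes for both genes. Heart muscle genes had 1 of 15 counted, Actc1 (-1.88). Platelet genes had 1 of 10 counted, Pf4, and 6 of the 10 were separated upward, against 13.7% of all genes. Hypoxia and glycolysis genes had 1 of 16 counted, the enolase Eno1 (1.05). Of these 16, 10 were separated upward (median 0.44), against 13.7% of all genes. Heat shock and stress genes had 1 of 17 counted, the haem oxygenase Hmox1 (1.74). The shares counted over all genes were 2.87% higher and 0.735% lower.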
